A study of Arabidopsis thaliana with 11 samples.

Results

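SEPALLATA3 (SEP3) had 7815 binding sites (BSs) at day 8, and for 672 of them (8.60%, 95% Wilson interval 8.00% to 9.24%) the deposited list named no gene. These 672 unassigned BSs were taken as the rows whose gene fields are all empty, which by the rule of the study means that the summit lay neither within 3000 bp before a gene's start nor in the gene nor within 1000 bp past its end. The 7143 BSs with a gene served for comparison, and all 6 lists of the series together hold 18963 BSs. Chromatin immunoprecipitation with sequencing (ChIP-seq) was done for APETALA1 (AP1) and SEP3 on Arabidopsis inflorescences harvested 2, 4 and 8 days after floral induction. All plants, the controls included, were of the Landsberg ecotype, of genotype pAP1::AP1-GR ap1 cal, and treated with dexamethasone (DEX). AP1 was therefore present only as the fusion to the glucocorticoid receptor (GR), driven by the AP1 promoter in a mutant whose inflorescences keep producing meristems until induction, and whole inflorescences mix many cell types. AP1-GR was precipitated with an anti-GR antibody, SEP3 with a peptide antibody, and pre-immune serum gave the mock control of each day. The titles of the SEP3 samples of day 2 name that day, whereas another of their labels reads 4 days, and this doubt attaches to each SEP3 day 2 value.

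MADS-domain proteins such as SEP3 and AP1 bind DNA as dimers at CArG boxes, and SEP3 joins the dimers of other floral organ identity proteins into larger complexes. AP1 specifies floral meristems and later sepals and petals, whereas SEP3 acts in floral organ identity in a largely redundant way with the other SEPALLATA proteins. Regulatory elements of plant genes mostly lie close to the gene, but distal enhancers are known as well, and a BS far from any gene cannot be given a target by distance alone.

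The sequences of 10 unassigned BSs are shown to let the summits be compared, each being 101 bases of the TAIR10 reference centred on the summit. They were read from the Columbia reference, not from the Landsberg plants. In the first group capitals mark a CArG box, which starts with CC, ends with GG and holds 6 A or T bases in between, so that a match on one strand is a match on the other.
SPT site, chr4:17409413-17409513, plus strand: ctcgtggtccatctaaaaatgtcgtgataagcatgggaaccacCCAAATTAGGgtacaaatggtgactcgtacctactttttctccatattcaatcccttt
ERCC1 site, chr3:1484019-1484119, plus strand: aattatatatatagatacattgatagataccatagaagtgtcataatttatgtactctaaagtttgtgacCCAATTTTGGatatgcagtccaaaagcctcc
FLP site, chr1:4904693-4904793, plus strand: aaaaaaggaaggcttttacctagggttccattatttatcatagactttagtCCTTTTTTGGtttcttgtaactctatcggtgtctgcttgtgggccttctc
In the second group capitals mark a GA-rich motif, a run of at least 8 alternating bases that holds GAGAGAGA or AGAGAGAG, or CTCTCTCT or TCTCTCTC when the run lies on the other strand.
ADS1 site, chr4:14372977-14373077, plus strand: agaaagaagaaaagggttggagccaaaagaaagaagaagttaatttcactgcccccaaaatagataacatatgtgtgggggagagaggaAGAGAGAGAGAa
LSH1 site, chr5:10451996-10452096, plus strand: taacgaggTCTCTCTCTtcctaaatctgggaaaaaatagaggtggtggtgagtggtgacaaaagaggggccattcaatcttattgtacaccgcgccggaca
NGA3 site, chr1:16671-16771, plus strand: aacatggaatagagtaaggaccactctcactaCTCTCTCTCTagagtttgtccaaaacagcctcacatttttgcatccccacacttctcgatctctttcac
The last group held neither motif and includes both of the strongest unassigned BSs.
PGSIP7 site, chr2:15009586-15009686, plus strand: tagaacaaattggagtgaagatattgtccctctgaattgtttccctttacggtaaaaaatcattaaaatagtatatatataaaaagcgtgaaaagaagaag
AT5G53410 site, chr5:21669319-21669419, plus strand: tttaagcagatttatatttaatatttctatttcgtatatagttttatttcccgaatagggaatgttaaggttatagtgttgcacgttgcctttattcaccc
JAG site, chr1:25682338-25682438, plus strand: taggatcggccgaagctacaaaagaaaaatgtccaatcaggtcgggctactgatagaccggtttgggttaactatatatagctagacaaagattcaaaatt
PHV site, chr1:10795069-10795169, plus strand: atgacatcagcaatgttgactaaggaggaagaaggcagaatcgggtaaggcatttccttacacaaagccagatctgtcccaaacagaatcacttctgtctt

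Each site carries the name of its nearest protein-coding gene, which is a label and not a target. The box of the SPT site began 7 bases before the summit, that of the FLP site 1 base after it and that of the ERCC1 site 20 bases after it. Among all 672 unassigned BSs, 32 (4.76%) had a CArG box in this window, against 422 of the 7143 BSs with a gene (5.91%) and 5.81% of the whole list. A GA-rich motif was found at 34 unassigned BSs (5.06%) and at 4.98% of the others, with 4.99% in the whole list. GC content exceeded the list median of 35.6% at 46.6% of the unassigned BSs and at 44.4% of the others (44.6% of the whole list, many windows being tied at the median). None of these differences passed a two-sided Fisher's exact test adjusted over the 3 features (adjusted p = 0.437 for the CArG box, 0.926 for the GA-rich motif and 0.437 for GC content). The interval for the CArG box ran from 2.63 points lower to 0.81 points higher at unassigned BSs, so a small difference either way was not detectable. Sequence repeated elsewhere in the genome, counted as any 31-base word within 100 bases of the summit that also occurs at another position, touched 7 unassigned BSs (1.04%) and 91 others (1.27%), with 1.25% over the list (Fisher's exact test, p = 0.719). The authors had removed reads that mapped to several locations before calling peaks, which limits such sites in both groups.

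The CArG box was more frequent among unassigned BSs that recurred across the lists, as a description with no test. It was present at 4 of 177 unassigned BSs found in no other list (2.26%, 0.88% to 5.67%) and at 7 of 43 found in all 5 other lists (16.3%, 8.12% to 30.0%). BSs with a gene ran from 3.85% of 1742 to 12.9% of 201 over the same classes. Strength differed between the classes as well. Median fold enrichment in the SEP3 day 8 list went from 2.62 to 6.38 for unassigned BSs and from 2.57 to 7.18 for BSs with a gene. The CArG box was not compared at like strength.

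Unassigned BSs were shared with AP1 about 2 times as often as BSs with a gene. At day 8, 145 of 672 unassigned BSs overlapped an AP1 BS by at least 1 bp (21.6%, 18.6% to 24.8%), compared with 796 of 7143 (11.1%, 10.4% to 11.9%) and 12% of the whole list. At day 4 the shares were 20.4% and 10.6%, with 11.5% in the whole list, and at day 2 they were 11.3% and 4.96%, with 5.5% in the whole list. The differences were 10.4 points (7.40 to 13.8) at day 8, 9.76 points at day 4 and 6.35 points at day 2. All 3 passed a two-sided Fisher's exact test adjusted over the 5 lists (adjusted p = 9.97e-13, 6.52e-12 and 1.28e-09). When the overlap had to cover 50% of both BSs, the day 8 shares fell to 8.63% and 3.35% and the difference still passed Fisher's exact test (adjusted p = 5.11e-09). Where an unassigned BS was shared, the AP1 BS had a median fold enrichment in its own list of 4.35 at day 2, 4.61 at day 4 and 3.26 at day 8, beside 4.11, 4.17 and 3.20 at shared BSs with a gene. The summits of AP1 and SEP3 were a median of 47, 30 and 38 bp apart at the unassigned BSs. Distance to the gene was not matched in these comparisons. BSs with a gene at 2500 to 3000 bp before the nearest protein-coding gene had an AP1 day 8 share of 23.8%. Those at 800 to 1000 bp past its end had 9.80%.

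**Figure D1:**
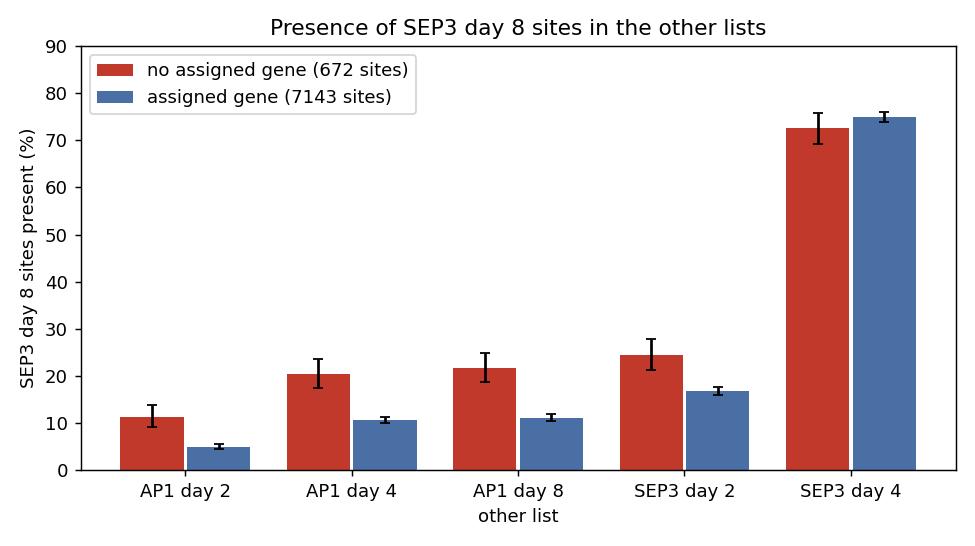
Share of SEP3 day 8 BSs, in percent on the vertical axis, that overlapped a BS of each other list on the horizontal axis, with bars for the 672 BSs without and the 7143 with an assigned gene and 95% Wilson intervals as error bars. The bars without a gene are higher for the 3 AP1 lists and SEP3 day 2 (24.4% against 16.7%), and the intervals overlap for SEP3 day 4 (-2.36 points).

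Within SEP3 itself, 164 unassigned BSs were also in the day 2 list (24.4%), against 16.7% of those with a gene and 17.4% of the whole list (difference 7.68 points, adjusted p = 1.88e-06, Fisher's exact test). The day 4 list held 488 of them (72.6%), against 5356 of the 7143 others and 74.8% of the whole list, a difference of -2.36 points with an interval of -5.99 to 1.03 that did not pass Fisher's exact test (adjusted p = 0.178). The day 4 result depended on how it was set up, since within 5 groups of like fold enrichment the unassigned BSs were found less often in the SEP3 day 4 list, with a difference of -5.52 points (adjusted p = 2.08e-04, Mantel-Haenszel chi-square test). Taking the days together, 163 unassigned BSs (24.3%) were in the SEP3 lists of days 2, 4 and 8, 325 (48.4%) in those of days 4 and 8, 1 in those of days 2 and 8, and 183 (27.2%) in that of day 8 alone. For BSs with a gene these shares were 16.7%, 58.3%, 0.070% and 24.9%.

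AP1 was found most often at unassigned BSs where SEP3 was listed on every day. Of the 163 unassigned BSs in all 3 SEP3 lists, 102 (62.6%, 54.9% to 69.6%) were in at least 1 AP1 list, compared with 50.7% of the 1190 such BSs with a gene. Of the 325 unassigned BSs of days 4 and 8, 83 (25.5%, 21.1% to 30.6%) were in an AP1 list, compared with 10.6% of 4166. Of the 183 found at day 8 alone, 6 (3.28%) were in an AP1 list, compared with 2.24% of 1782. These classes also differed in strength, with median fold enrichments of 5.55, 3.64 and 2.62 in the same order for unassigned BSs. For BSs with a gene the medians were 5.50, 3.42 and 2.57. AP1 presence was not compared between the classes at like strength. In all, 43 unassigned BSs (6.40%) were in all 5 other lists and 177 (26.3%) in none of them, against 2.81% and 24.4% of BSs with a gene. Of the AP1 BSs without a gene, 75 of 82 on day 2, 137 of 142 on day 4 and 152 of 166 on day 8 overlapped such a SEP3 BS (91.5%, 96.5% and 91.6%). Nearly all AP1 BSs overlapped some SEP3 day 8 BS (96.6%, 99.3% and 96.3%), so these shares are not particular to sites without a gene. The 6 lists differed in how many BSs lacked a gene, from 16.5%, 14.9% and 15.4% in the AP1 lists of days 2, 4 and 8 to 14.4%, 8.08% and 8.60% in the SEP3 lists of the same days. In that order the lists hold 498, 956, 1075, 1776, 6843 and 7815 BSs. The low shares were those of the largest lists, and factor and list size were not separated.

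Unassigned BSs were somewhat stronger than the rest. Their fold enrichment, the ratio of ChIP signal at the summit to the control background, ranged from 1.69 to 8.90 with a median of 3.52, against a median of 3.26 for BSs with a gene. It exceeded the list median of 3.27 at 376 unassigned BSs (56.0%), against 49.3% of the others and 49.9% of the whole list (adjusted p = 0.00321 over 3 measures, Fisher's exact test). The −log10 q, the significance of a peak as the peak caller wrote it, had medians of 22.6 and 19.6 and exceeded the list median of 19.9 at 54.3% of unassigned BSs, against 49.0% of the others and 49.5% of the whole list (adjusted p = 0.0131, Fisher's exact test). Width had medians of 376 and 358 bp, and 54.2% of unassigned BSs were wider than the list median of 360 bp, against 49.4% of the others and 49.8% of the whole list (adjusted p = 0.0193, Fisher's exact test). Width went with strength, and within the 5 groups of like fold enrichment the difference in width was -0.38 points (p = 0.845, Mantel-Haenszel chi-square test). The whole list held 418 BSs with no annotated locus of any kind in the window, whether or not it named a gene for them. When these 418 were compared with the other 7397, none of the 3 measures passed Fisher's exact test (adjusted p = 0.0629). The distributions overlapped widely, with upper quartiles of 4.96 and 4.41 for fold enrichment.

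The share of unassigned BSs was 6.40% to 8.57% in the 7 lower of 10 equal groups by fold enrichment and 10.1%, 11.1% and 11.0% in the 3 upper ones. Presence in the AP1 day 8 list also climbed with strength, so BSs of like strength were compared. In the 5 weakest groups, 0 to 3 unassigned BSs each were in that list, too few to order against the BSs with a gene. In the highest of the 10 groups, with fold enrichment from 6.02 to 8.92, 59 of 86 unassigned BSs (68.6%) and 403 of the BSs with a gene (57.9%) were in the AP1 day 8 list. Within the 5 groups of like fold enrichment the unassigned BSs were ahead by 7.81 points for AP1 day 8, 7.18 for AP1 day 4, 5.24 for AP1 day 2 and 4.42 for SEP3 day 2 (adjusted p = 2.00e-09, 1.11e-08, 8.82e-08 and 0.00179, Mantel-Haenszel chi-square test).

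**Figure D2:**
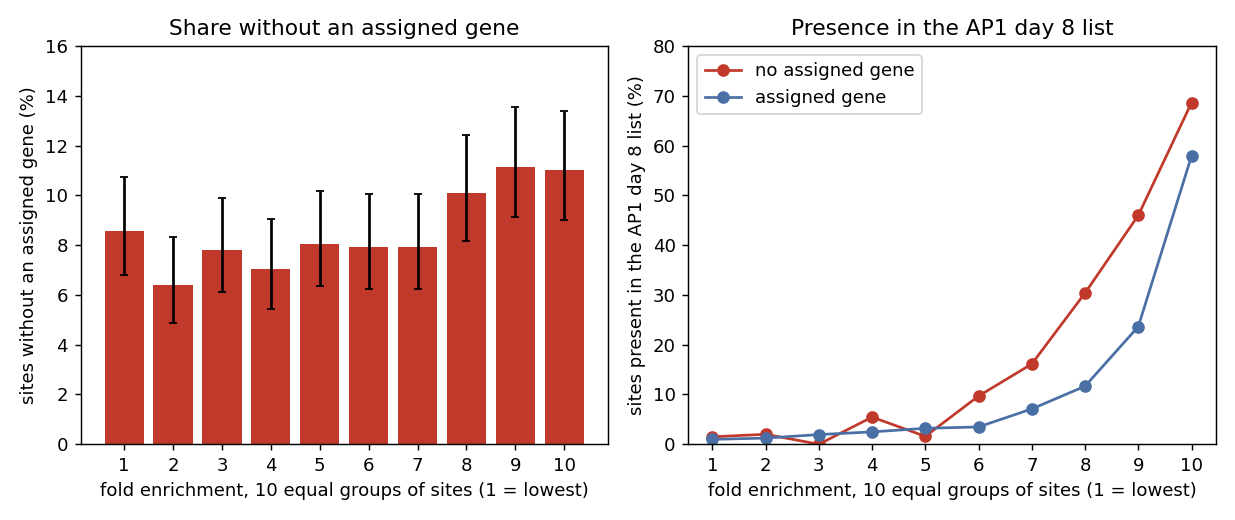
SEP3 day 8 BSs in 10 equal groups by fold enrichment, from the weakest (1) to the strongest (10) on the horizontal axes. The left bars give the percentage without an assigned gene with 95% Wilson intervals and reach 11.1% in group 9, and the right lines give the percentage present in the AP1 day 8 list for BSs without and with an assigned gene, reaching 68.6% without and 57.9% with a gene in group 10.

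The unassigned BSs lay in long gaps between genes, which the rule itself fixes in part and which is given as a description. They numbered 203 on chromosome 1, 119 on chromosome 2, 109 on chromosome 3, 83 on chromosome 4 and 158 on chromosome 5, or 7.11% to 9.59% of the BSs of each chromosome. The gap between the protein-coding genes on either side had a median of 7494 bp, against 2999 bp around the BSs with a gene that lay between genes. In the 100 kb centred on the summit there was a median of 24 protein-coding genes, against 27. The nearest protein-coding gene was a median of 2602 bp away, and the farthest 17470 bp. For 420 unassigned BSs the summit lay past the end of that gene and for 248 before its start, and the window of the rule is shorter past a gene's end. Both flanking genes pointed towards the site at 146 of 668 unassigned BSs with a gene on each side (21.9%), against 8.78% of the others. Genes pointing away flanked 26.8% and 38.8%, and genes in tandem 51.3% and 52.4%.

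The RefSeq annotation used here is not the one behind the lists, and it placed a locus in the window of many of these sites. No annotated locus of any kind was in the window of 399 unassigned BSs, only noncoding loci or pseudogenes in that of 189, and a protein-coding gene in that of 84. Long noncoding RNA loci (lncRNA) were in the window of 159. The AP1 day 8 share was 23.8% (19.9% to 28.2%) for the 399, 20.1% (38 BSs) for the 189 and 14.3% (8.37% to 23.3%) for the 84, against 11.1% for BSs with a gene. Median fold enrichments were 3.54, 3.47 and 3.69 (3.26 with a gene).

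Over the whole list, BSs more than 2000 bp from a protein-coding gene were in the AP1 day 8 list more often than those inside or near one. Among the distances beyond 2000 bp the intervals overlap, so neither a further rise nor a plateau is shown. The share was 9.05% for summits inside a protein-coding gene, 9.40% up to 500 bp away, 13.3% from 500 to 1000 bp, 16.3% from 1000 to 2000 bp, 20.6% from 2000 to 3000 bp, 20.9% from 3000 to 5000 bp and 24.2% (15.5% to 35.8%) for the 66 BSs beyond. Over the last 3 of these distances the share was 19.5%, 18.6% and 18.2% for AP1 at day 4 and 9.52%, 10.7% and 7.58% for AP1 at day 2. These shares are a description, with no test. Just inside the upstream edge, 101 BSs with a gene had their summit 2500 to 3000 bp before the nearest protein-coding gene. Their median fold enrichment was 3.27 and 24 of them (23.8%) were in the AP1 day 8 list. Just outside, at 3000 to 3500 bp, 76 unassigned BSs had a median of 3.52 and 16 (21.1%) were in that list. At the downstream edge, 102 BSs at 800 to 1000 bp had a median of 3.67 with 10 (9.80%) in the AP1 day 8 list, and 63 unassigned BSs at 1000 to 1200 bp had a median of 3.64 with 14 (22.2%).

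**Figure D3:**
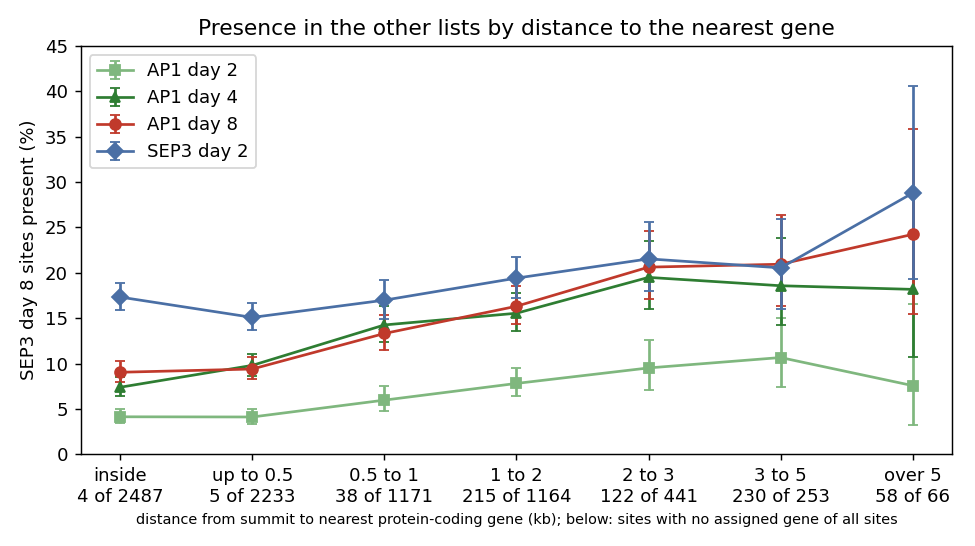
Percentage of all SEP3 day 8 BSs (vertical axis) present in the AP1 lists and the SEP3 day 2 list by distance in kb from the summit to the nearest protein-coding gene (horizontal axis), with 95% Wilson intervals, and beneath each distance the number without an assigned gene of all BSs. The AP1 day 8 share goes from 9.05% inside genes to 20.6% at 2000 to 3000 bp. Over the last 3 distances the SEP3 day 2 share is 21.5%, 20.6% and 28.8%. The intervals of these distances overlap within each list, so neither a further rise nor a plateau is shown.

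Unassigned BSs tended to lie next to other SEP3 sites. Another SEP3 day 8 summit lay within 3000 bp of 518 unassigned BSs (77.1%), against 60.9% of those with a gene and 62.3% of the whole list (difference 16.1 points, 12.6 to 19.4, Fisher's exact test, p = 1.67e-17), and the median distance to the nearest summit was 1350 bp against 2005 bp. Sites this close count each other, so they are not independent, and the interval and p overstate the precision. Chains of unassigned BSs whose summits followed each other within 5000 bp held 354 of the 672, as 97 pairs, 31 groups of 3, 11 of 4, 3 of 5 and 1 of 8, while 318 stood alone. Chains were not counted for BSs with a gene, so these numbers are a description without a comparison. The chain of 8 spanned 8164 bp on chromosome 1 between 27040599 and 27048762, beside SUC1, which encodes a sucrose transporter. Its fold enrichments ran from 2.20 to 5.64, and all 8 were in the SEP3 day 4 list. A chain of 5 on chromosome 5 beside CRF3 and PDV1 reached 7.38. Since neighbours are not independent, the strongest BS of each group of neighbours was also compared, a choice made after seeing the data. The AP1 day 8 shares were then 30.0% of 320 unassigned BSs and 12.9% of 4326 with a gene. The gap in strength was wider among these BSs. Fold enrichment exceeded their median at 65.6% and 48.7%, a difference of 16.9 points against 6.66 over the whole list. AP1 presence was not compared at like strength among them.

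The 10 strongest unassigned BSs, with fold enrichments of 8.42 to 8.90, ranked between 3 and 72 among all 7815. All 10 were in the SEP3 lists of days 2 and 4, 9 were in the AP1 day 4 list and 5 in all 5 other lists. Among the BSs with a gene in the highest of the 10 groups by fold enrichment, all were in the SEP3 day 4 list, 70.1% in the SEP3 day 2 list and 57.0% in the AP1 day 4 list. For the unassigned BSs of that group the shares were 100%, 73.3% and 64.0%. That group reaches down to a fold enrichment of 6.02, so it is not matched in strength to these 10. The strongest of the 10 lay 1071 bp past the end of PGSIP7 with a fold enrichment of 8.90, and it was absent from the AP1 day 2 list. The next, 1323 bp past AT5G53410, had 8.85 and was in every list. RAP2.4, an ethylene response factor gene, was 1058 bp away from a BS of 8.76. The BS 4620 bp before SPT, which encodes a basic helix-loop-helix protein of carpel development, had 8.74 and a width of 2130 bp at chr4:17407726-17409855. Fold enrichment at the SPT site was 3.40, 7.35 and 9.18 for AP1 at days 2, 4 and 8 and 5.43 and 11.4 for SEP3 at days 2 and 4, values that are not on 1 scale because each list was called separately. The remaining 6 lay near AT5G45350 (8.71), AT4G14620 (8.52), RGL1 (8.50), HB25 (8.46), ERCC1 (8.45) and DMC1 (8.42). By the annotation used here the HB25 site was inside the window, 973 bp past the end of that gene. RGL1 encodes a DELLA repressor of gibberellin responses and DMC1 a meiotic recombinase. Of these 10, the AT4G14620 site was the one found in no AP1 list.

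The 43 unassigned BSs in all 5 other lists had fold enrichments of 3.47 to 8.85 with a median of 6.38, against a median of 7.18 for the 201 such BSs with a gene. The nearest protein-coding gene was a median of 2407 bp away, and the summit lay past its end at 32 of the 43. Besides 5 already named, the strongest of them were near AT1G31040 (8.24), ADS1 (8.15), FLP (8.10), PPOX (7.98) and AT5G19090 (7.84). FLP encodes a MYB protein of stomatal development. The 5 widest unassigned BSs were near AGC1.7 (3310 bp), ERF4 (2761 bp), SPT (2130 bp), ANT (1825 bp) and AT1G21000 (1715 bp), and of these the AGC1.7 site had the lowest fold enrichment, 3.57.

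Genes that pattern the flower were next to some of these sites. A list of 276 loci, which covers floral identity, organ polarity, boundary, auxin, gibberellin and microRNA genes, was nearest to 26 unassigned BSs (3.87%, 2.65% to 5.61%), against 4.02% of BSs with a gene. No test was made, since distance to genes chose the sites. Another 12 unassigned BSs had a listed gene as their nearest protein-coding gene with another locus nearer, a class added after the values were seen. Counted by the nearest protein-coding gene alone, the list was next to 35 unassigned BSs (5.21%, 3.77% to 7.16%) and to 4.16% of BSs with a gene. The 38 BSs concerned 30 genes and had fold enrichments of 2.22 to 8.74 with a median of 4.285, against 3.52 over all 672 sites. Of them, 35 were in the SEP3 day 4 list, 21 in at least 1 AP1 list, 4 in all 5 other lists and 3 in none. Over all 672 sites, 488 were in the SEP3 day 4 list, 191 (28.4%) in at least 1 AP1 list, 43 in all 5 and 177 in none, and no test was made of the difference. The 38 were stronger by their median, and BSs of like strength were not compared here.

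Several organ polarity genes had unassigned BSs. The PHV site, 1005 bp past the end of this class III homeodomain-leucine zipper gene, had a fold enrichment of 7.32 for SEP3 at day 8 and was in every list, with 4.67, 4.68 and 4.01 for AP1 at days 2, 4 and 8 and 7.52 and 11.7 for SEP3 at days 2 and 4. REV, of the same class, had a BS 4504 bp before its start with 2.22 that was in no other list. Those of MIR166a, the microRNA gene whose product targets this class, had 2.55 and 2.50 and were in the SEP3 day 4 list alone. KAN2, which specifies the abaxial side, had 5.31 and 3.21, and ETT, an auxin response factor of polarity, had 4.51.

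Genes of organ growth and of the carpel formed another set. JAG, a zinc finger gene of organ growth, had 2 BSs, 1926 and 2819 bp past its end, with 7.53 and 4.83, and both were in the AP1 lists of days 4 and 8. ANT, an AP2-domain gene of organ growth, had 4.41 and 3.59 at 3963 and 5040 bp before its start. NGA3, a B3-domain gene of style and stigma, had 5.81 at 3007 bp before its start, just past the edge. NGA2 had 2.51 at 998 bp past its end, inside the window by the annotation used here. STY1, which acts in the style, had 2.60, and BEL1, a homeodomain gene of ovule integuments, had 6.16. The second SPT site, 3537 bp before the gene, had 2.62 and was in no AP1 list. SUP, which limits the stamen whorl, had 5.94 past its end and 5.71 before its start.

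Boundary, hormone and floral induction genes were also found. LSH1 and LSH3, of a family in which LSH3 acts at organ boundaries, had 6.87 and 3.47, and the LSH3 site was in all 5 other lists in spite of its lower value. PID, a kinase that directs auxin transport, had 6.66 and was in all 5 as well. MP, an auxin response factor of organ initiation, had 3.71 and 3.26 at 5150 and 4135 bp before its start and was in no AP1 list. IAA7 (4.16), YUC4 (3.64, auxin synthesis) and GA20OX1 (5.01, gibberellin synthesis) each had 1 BS. FT, the florigen gene, had a BS of 4.11 lying 1305 bp past its end that was in the AP1 lists of days 2 and 4 and the SEP3 day 4 list. MIR396b, whose product targets growth-regulating factors, had 3.78. UFO, an F-box gene of floral patterning, had 3.54 at 4227 bp before its start with AP1 at days 4 and 8.

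**Figure D4:**
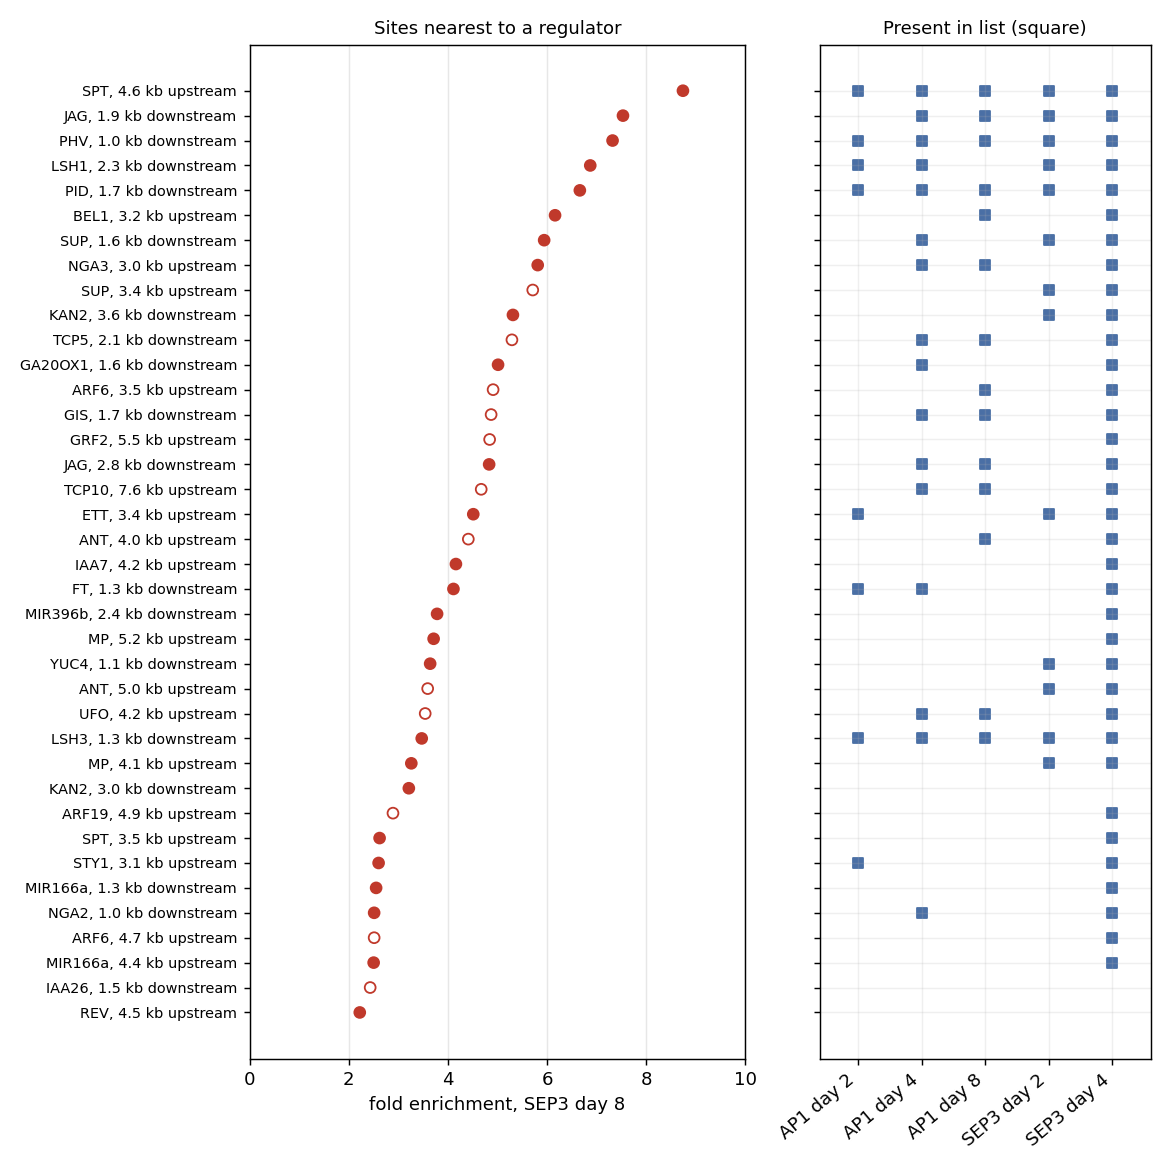
The 38 unassigned BSs nearest to a listed regulator, with fold enrichment in the SEP3 day 8 list on the left horizontal axis and squares on the right for presence in the other 5 lists. Row labels give the gene with the distance and side, filled circles mark the 26 where the regulator is the nearest locus and open circles the 12 where it is the nearest protein-coding gene, and the SPT site is highest at 8.74.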

How the data were processed

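Per the labels and the study's methods, base calls came from CASAVA 1.7 or 1.8, reads were mapped to TAIR10 with Bowtie 0.12.7, and MACS2 called peaks on combined replicates against the mock samples. The authors deposited 1 list per factor and day, with the fold enrichment as a linear ratio and significance as −log10 of the p-value and of the q-value. The smallest −log10 q was 2.99 to 3.29 in the 6 lists. Blank lines (230 in AP1 day 4 and 111 in AP1 day 8) were dropped. Gene names in the lists were used only to tell which BSs had one.

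Overlap needed 1 bp. Shares were compared with two-sided Fisher's exact tests and Benjamini-Hochberg adjustment, and strata with Mantel-Haenszel chi-square tests (scipy 1.17.1, statsmodels 0.14.6). The stratified test alone was tried on simulated data. The simulated sites were independent, so that trial does not cover neighbouring sites. Intervals are Wilson 95% intervals (differences: Newcombe) and cover counting error only. Replicates were merged before calling, which leaves no replicate spread, BSs are not replicates, and each p describes these lists. Depth per library was not analysed here, and absence from a list does not mean an unbound site. Of 12083 listed pairs of BS and gene, 257 name a locus absent from the RefSeq annotation used here, and 99.9% of the others had the summit in the window.

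Sites were named by rule: the 10 unassigned BSs of highest fold enrichment, the 5 widest, up to 10 present in all 5 other lists, and those whose nearest locus was a listed regulator. In the class added later, the listed gene was only the nearest protein-coding gene. From it the second ANT site, the SUP site before its start and the UFO site were described outside the rule. Others of that class, such as those of TCP5 (5.29) and ARF6 (4.91), were not described. Members and lists were chosen with earlier results of these data known. Alternatives changed the overlap, the −log10 q minimum, the definition of an unassigned BS, the strata, the motif window and the handling of repeats. Those using BSs outside gene bodies, 1 BS per group of neighbours or 5 groups of like width were chosen after seeing the data.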

Additional observations from a re-analysis of the deposited data

How the results depend on the processing

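Of 107 alternative values, 93 were counted as unchanged, among them all 12 for each AP1 list and for SEP3 day 2. For a comparison this meant the same direction and side of the threshold. For the share of BSs without a gene in each list, which has no test, it meant a value within the main Wilson interval. Presence in the SEP3 day 4 list depended on the setting. It passed the threshold with a reciprocal overlap of 50% (-3.68 points), within 5 (-5.52) and 10 (-5.47) groups of like fold enrichment and within 5 groups of like width (-3.22), and it turned to 0.42 points with a −log10 q of at least 10 in all lists and to 1.64 with 1 BS per group of neighbours. Width no longer passed for the share above the 75th percentile (2.67 points), with a −log10 q of at least 10 (3.86) or for BSs with no annotated gene of any kind (4.72), and turned to -0.38 within 5 groups of like fold enrichment. For that definition, which takes 418 BSs from the whole list and not from the unassigned BSs alone, fold enrichment (5.20 points) and −log10 q (4.87) did not pass either. With 100 bases on each side, the differences turned to -1.21 points for the GA-rich motif and -2.55 for GC content, neither past the threshold. The causes were not tested. No paired analysis was possible because each list pools its replicates. Peak lists without depth limit these comparisons to sites called by the authors.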
